A study of Mus musculus with 9 samples.

Results

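A set of 10 genes of the naive T cell state was followed in mouse CD4+ T cells labelled ERα KO (knockout of oestrogen receptor α) or wildtype: the transcription factors Lef1, Tcf7, Satb1, Bach2 and Foxp1, and the markers Dapl1, Igfbp4, Txk, Actn1 and Als2cl. The members were chosen by symbol, as 10 of the 39253 genes in the count table, with earlier results of these data known. Shares of all genes given beside them are therefore descriptions. In batch 2, all 10 had a log2 fold change above 0, knockout over wildtype, and for 8 the libraries of the genotypes did not overlap. The median of the members there was 0.36, and 0.15 without wildtype replicate 4. In batch 1, 9 of the 10 had a log2 fold change below 0 after TMM scaling (8 with library totals, where Als2cl was at 0.040). None of the 10 passed edgeR's adjusted test in either batch, in both batches together, or for the difference between the batches. The RNA came from the cells of mice at day 9 of EAE (experimental autoimmune encephalomyelitis, a model of autoimmune inflammation of the central nervous system), a condition shared by all libraries. The groups were ERα KO, with 3 libraries in batch 1 and 2 in batch 2, and wildtype, with 2 libraries in each batch. The labels give the genotype as ERα KO or wildtype, and neither the allele, the cells in which the receptor was removed, the strain, the sex, the age nor the organ of origin. The title of the series concerns oestrogen receptor signalling in dendritic cells, while the cells measured are CD4+ T cells.

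Naive T cells are mature cells that have not met their antigen and stay quiescent. Tcf7 and Lef1 encode HMG-box factors that bind DNA alone or with β-catenin at the end of the Wnt pathway and are needed for T cell development. Satb1 folds chromatin in thymocytes and T cells, Bach2 represses effector genes, and Foxp1 helps to keep naive cells quiescent. When T cells are activated through their receptor and become effector cells, transcripts of this kind generally fall.

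The libraries differed by batch in depth and background. The totals were 5069169 to 8713129 counts in ERα KO and 4926347 and 11296593 in wildtype libraries of batch 1, and 54625373 and 62863222 in ERα KO and 45013017 and 69844721 in wildtype libraries of batch 2. Every member was measured far above zero, with 316 to 151012 counts in each library, where 3 counts correspond to at most 0.609 CPM (counts per 1000000 of the library total). The 1508 olfactory, vomeronasal and taste receptor genes, silent in T cells, took 0.101% to 0.255% of the counts in ERα KO and 0.0574% and 0.153% in wildtype libraries of batch 1, and at most 0.0037% in batch 2. Esr1, which encodes the receptor, had 9 and 14 counts in ERα KO against 101 and 76 in wildtype libraries of batch 2. In batch 1 it had 72, 55 and 66 counts in ERα KO against 55 and 80 in wildtype libraries, so there it does not separate the genotypes. ERα KO replicate 3 differed from the other batch 1 libraries in sex-linked transcripts, with 55.4 CPM of the Y-linked Ddx3y against 0 in the others. The X-linked Xist stood at 30.4 CPM in that library and at 1745 to 2680 CPM in the other batch 1 libraries. Batch 2 libraries all expressed Ddx3y, at 93.6 to 107 CPM, with Xist at no more than 0.289 CPM. The 8 T cell genes Cd4, Cd3d, Cd3e, Cd3g, Cd2, Cd5, Lck and Cd28 summed to 3262 to 4828 CPM over all 9 libraries, and the B cell list summed to at most 118 CPM.

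The promoters of 3 members are shown because they hold a nuclear receptor or a forkhead motif. All 10 members matched RefSeq's promoter table of build GRCm38.p6, with 22 windows of 300 bases, from 250 before to 50 after a transcript start. The motifs were searched on both strands. The oestrogen response element, GGTCA and TGACC with 3 bases between them, was in 0 of the 22 member windows and in 0.07% of the 32851 windows of the table. The element's arm GGTCA with an A before it, AGGTCA, was in 2 of the 22 member windows (Tcf7 and Satb1) and in 16.3% of all windows. The forkhead motif GTAAACA was in 2 of the 22 member windows (Dapl1 and Tcf7) and in 3.65% of all windows. The TCF/LEF motif CTTTGAA was in 2 of the 22 member windows, those of Foxp1 and Txk (5.14% of all windows). CTTTGAT was in 0 member windows (3.73% of all windows). Capitals mark AGGTCA (read as TGACCT on the gene's strand) in Tcf7 and Satb1 and GTAAACA in Tcf7 and Dapl1; a match is a string of letters and not a measured binding site. The windows are chr11:52282546-52282845 on the minus strand for Tcf7, chr17:51826539-51826838 on the minus strand for Satb1 and chr2:59484403-59484702 on the plus strand for Dapl1.
Tcf7: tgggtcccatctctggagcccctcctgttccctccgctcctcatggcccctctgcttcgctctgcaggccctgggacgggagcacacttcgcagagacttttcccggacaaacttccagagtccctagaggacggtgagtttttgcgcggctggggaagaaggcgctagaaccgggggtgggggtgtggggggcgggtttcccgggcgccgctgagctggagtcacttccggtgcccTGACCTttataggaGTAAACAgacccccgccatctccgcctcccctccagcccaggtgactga
Satb1: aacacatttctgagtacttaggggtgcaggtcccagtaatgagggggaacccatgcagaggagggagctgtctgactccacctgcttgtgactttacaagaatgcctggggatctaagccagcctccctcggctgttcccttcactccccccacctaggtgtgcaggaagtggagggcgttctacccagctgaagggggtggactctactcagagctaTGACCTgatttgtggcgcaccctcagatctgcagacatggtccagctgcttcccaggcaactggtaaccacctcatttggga
Dapl1: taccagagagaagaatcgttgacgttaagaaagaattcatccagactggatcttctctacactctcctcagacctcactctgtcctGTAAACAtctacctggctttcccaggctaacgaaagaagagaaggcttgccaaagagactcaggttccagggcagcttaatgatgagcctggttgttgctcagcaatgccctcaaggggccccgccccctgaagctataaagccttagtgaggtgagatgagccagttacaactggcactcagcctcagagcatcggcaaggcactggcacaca

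Tcf7 and Lef1, the HMG-box factors, had lower or overlapping values in ERα KO libraries of batch 1 and higher values in those of batch 2. In batch 1, Tcf7 stood at 1962, 1608 and 2216 CPM in ERα KO libraries, against 2561 and 2556 CPM in wildtype. All ERα KO libraries lay below both wildtype libraries. In batch 2, Tcf7 stood at 2378 and 2233 CPM in ERα KO libraries, against 2162 and 1590.3 CPM in wildtype. Here both ERα KO libraries lay above both wildtype libraries, with ERα KO replicate 5 close to wildtype replicate 3. The log2 fold changes, ERα KO over wildtype, were -0.57 ± 0.35 (SE) in batch 1 and 0.29 ± 0.18 in batch 2. As its partner in the family, Lef1 stood at 762, 684 and 979.8 CPM in ERα KO libraries of batch 1, against 903 and 977 CPM in wildtype, so the groups overlapped. The batch 2 values were 1067 and 1044 CPM in ERα KO libraries, against 807 and 692 CPM in wildtype, with no overlap. Its log2 fold changes were -0.38 ± 0.36 in batch 1 and 0.49 ± 0.13 in batch 2 (adjusted p = 1.00 and 0.618 in edgeR).

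**Figure D1:**
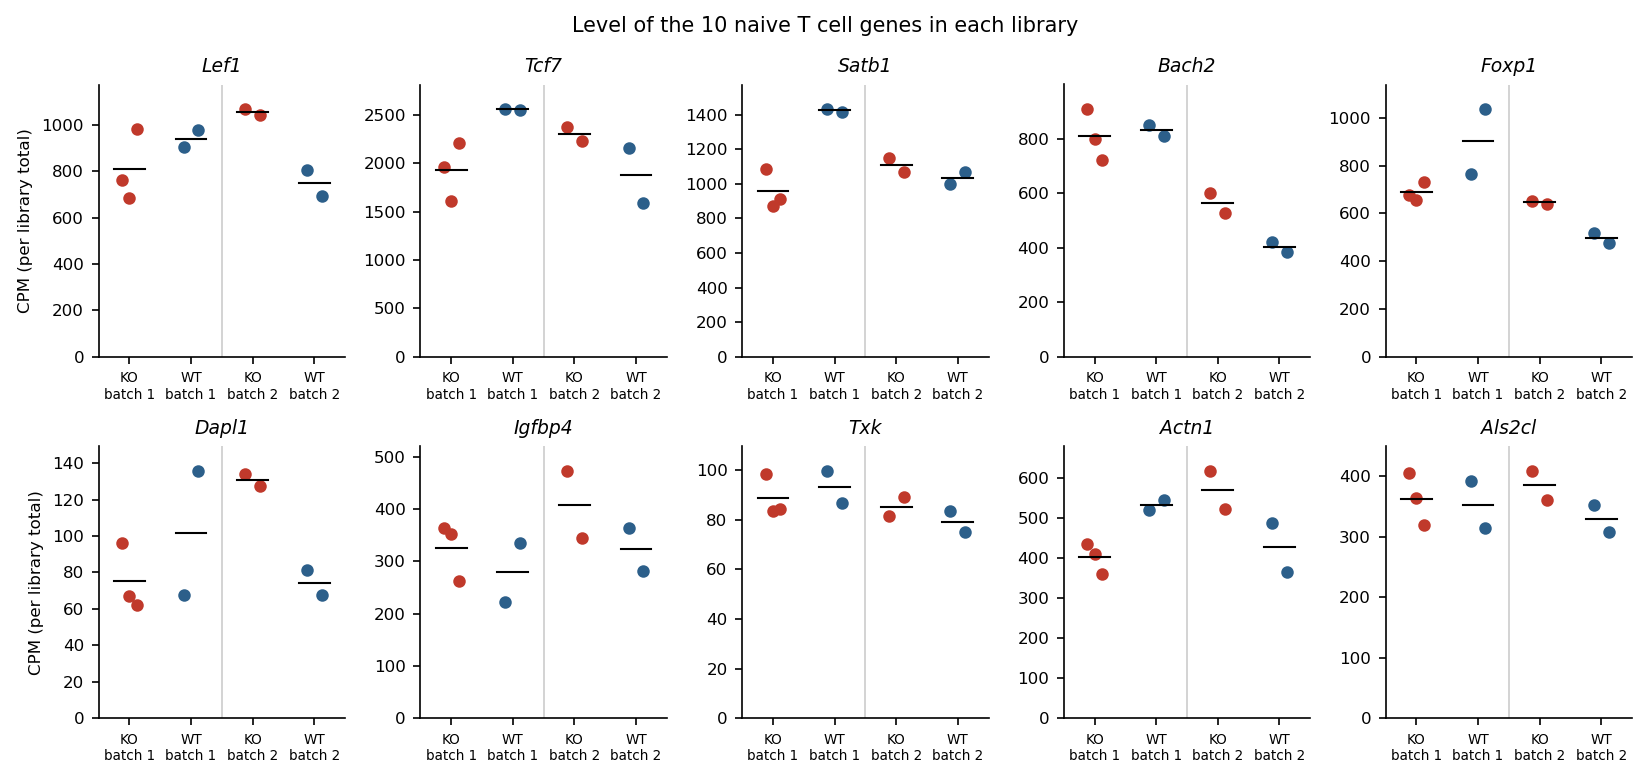
CPM of the 10 members in each library, by batch, with ERα KO left of wildtype; points are libraries and bars are group means. In batch 2 both ERα KO libraries lie above both wildtype libraries for 8 members, and in batch 1 all 3 ERα KO libraries lie below both wildtype libraries for 4.

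Satb1, the chromatin organiser, was separated between the genotypes in both batches, in opposite directions. In batch 1 it stood at 1083, 874 and 914 CPM in ERα KO libraries, against 1431 and 1418 CPM in wildtype. The batch 2 libraries held 1151 and 1070.3 CPM in ERα KO libraries, against 999.8 and 1067 CPM in wildtype. The gap was wide in batch 1 and almost closed in batch 2, where ERα KO replicate 5 and wildtype replicate 4 nearly met. Its log2 fold change of -0.71 ± 0.36 in batch 1 was the lowest of the 10 members there, and the change in batch 2 was 0.11 ± 0.09. Foxp1, the forkhead factor of quiescence, stood at 679, 657 and 732 CPM in ERα KO libraries of batch 1, against 766 and 1036 CPM in wildtype. Batch 2 gave 653 and 641 CPM in ERα KO libraries, against 517 and 477 CPM in wildtype. The genotypes did not overlap in either batch, with ERα KO below wildtype in batch 1 and above it in batch 2. The log2 fold changes were -0.51 ± 0.36 in batch 1 and 0.38 ± 0.11 in batch 2. Bach2, the repressor of effector genes, overlapped in batch 1, at 908, 800.4 and 724 CPM in ERα KO libraries against 849.6 and 812 CPM in wildtype. Its batch 2 values were 602 and 528 CPM in ERα KO libraries, against 423 and 385 CPM in wildtype, with no overlap. Its log2 fold changes were -0.17 ± 0.37 and 0.49 ± 0.12 in batches 1 and 2.

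Dapl1, whose transcript marks naive T cells, had the highest batch 2 fold change of the 10 members. It stood there at 134 and 128 CPM in ERα KO libraries, against 81.6 and 67.4 CPM in wildtype, 0.81 ± 0.15 as a log2 fold change (adjusted p = 0.618 in edgeR). In batch 1 it stood at 96.2, 67.3 and 62.3 CPM in ERα KO libraries, against 67.5 and 136 CPM in wildtype. The genotypes overlapped there, with wildtype replicate 2 the highest. The log2 fold change in batch 1 was -0.50 ± 0.37, and it ran from -0.80 without wildtype replicate 1 to -0.15 without wildtype replicate 2. Igfbp4, a secreted binder of insulin-like growth factors, was the member with a fold change above 0 in both batches, 0.14 ± 0.37 in batch 1 and 0.34 ± 0.22 in batch 2. Left-out libraries moved it to between 0.011 (without ERα KO replicate 1) and 0.35 (without ERα KO replicate 3) in batch 1, and between 0.099 (without ERα KO replicate 4) and 0.58 (without wildtype replicate 3) in batch 2. It stood at 364, 352 and 262 CPM in ERα KO against 222 and 335 CPM in wildtype libraries of batch 1, and at 473 and 344 CPM in ERα KO against 364 and 281 CPM in wildtype libraries of batch 2. The genotypes overlapped in both batches.

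Actn1, α-actinin, which cross-links actin filaments, was separated in opposite directions, as Satb1 and Foxp1 were. It stood at 436, 409 and 359.8 CPM in ERα KO libraries of batch 1, against 520.2 and 546 CPM in wildtype. Batch 2 libraries had 618 and 521 CPM in ERα KO libraries, against 488 and 366 CPM in wildtype. The log2 fold changes were -0.53 ± 0.36 in batch 1 and 0.41 ± 0.19 in batch 2. Txk, a TEC family kinase of T cell receptor signalling, overlapped in both batches. It stood at 98.4, 83.7 and 84.4 CPM in ERα KO against 99.7 and 86.9 CPM in wildtype libraries of batch 1, and at 81.6 and 89.0 CPM in ERα KO against 83.3 and 74.8 CPM in wildtype libraries of batch 2. Its log2 fold changes were -0.22 ± 0.37 in batch 1 and 0.11 ± 0.13 in batch 2. Als2cl stood at 405, 363 and 318 CPM in ERα KO libraries of batch 1, against 391 and 314 CPM in wildtype, with overlap. The values in batch 2 were 409 and 361 CPM in ERα KO libraries, against 352 and 307 CPM in wildtype, with no overlap. Its log2 fold changes were -0.11 ± 0.37 in batch 1 and 0.22 ± 0.13 in batch 2.

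**Figure D2:**
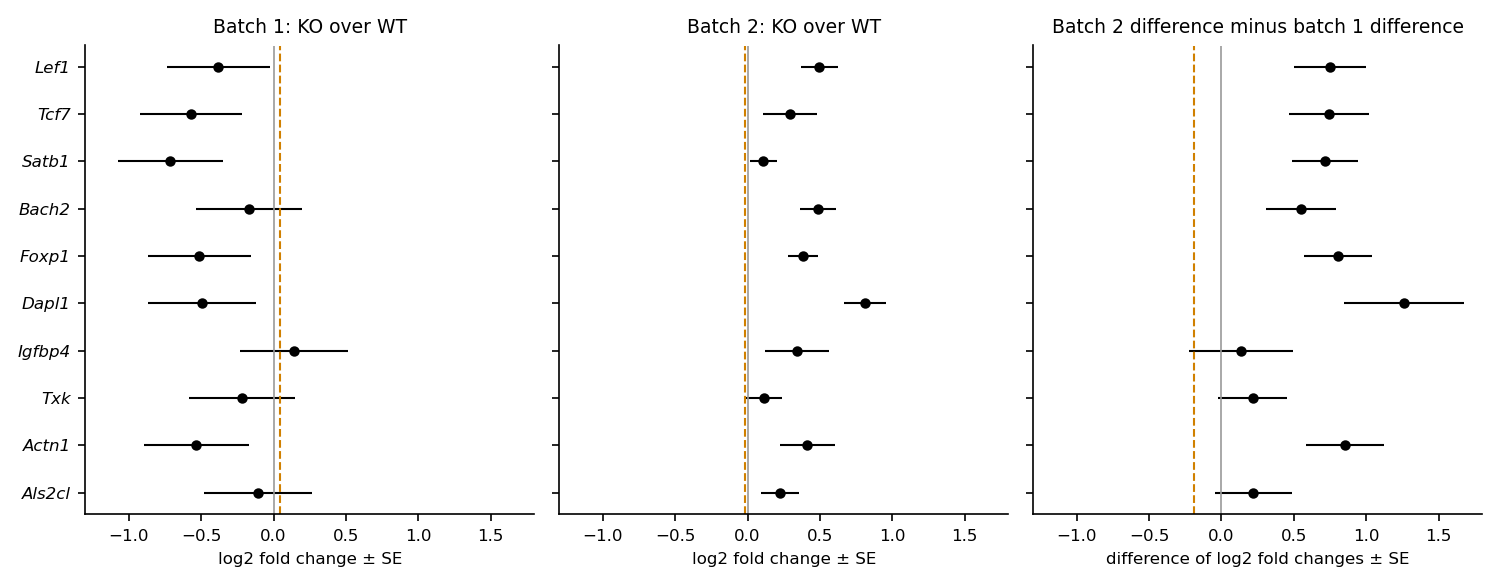
Log2 fold change, ERα KO over wildtype, of each member in batch 1 (left) and batch 2 (middle), and the difference between the batches (right); points are edgeR estimates, bars are standard errors and the dashed line is the median of all genes tested. The batch 2 estimates all lie above 0, between 0.11 and 0.81, and 9 of the 10 batch 1 estimates lie below 0, between -0.71 and -0.11, with the differences between 0.14 and 1.26.

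Counted over the 10 members, the ERα KO libraries lay wholly below wildtype in batch 1 for Tcf7, Satb1, Foxp1 and Actn1, which is 4 of 10, against 5.19% of all genes tested there. They lay wholly above wildtype in batch 2 for 8 of 10, all but Igfbp4 and Txk, against 19.6% of all genes. The 4 that lay below in batch 1 also lay above in batch 2, and 2.3% of the 15288 genes tested in both batches did so. By sign of the fold change, 9 of 10 were below 0 in batch 1 and above 0 in batch 2, against 30.2% of those genes. In batch 1 the median log2 fold change of the members was -0.44, against 0.04 over the 24600 genes tested, and 9 of 10 were below 0, against 46.2% of genes. Without ERα KO replicate 3, the library with other sex-linked transcripts, the batch 1 median was -0.34 and 2 members, Igfbp4 and Als2cl, were above 0. Without wildtype replicate 1, 4 members were above 0. In batch 2 the median was 0.36, against -0.02 over 15910 genes, and 10 of 10 were above 0, against 47.8%. edgeR's quasi-likelihood test with Benjamini-Hochberg adjustment called 0 members in batch 1, where it called 0.126% of genes, and 0 members had an unadjusted p under 0.05 (1.97% of genes). In batch 2 it called 0 members and 0% of genes, and Lef1, Bach2, Foxp1 and Dapl1 had higher values at an unadjusted p under 0.05, 4 of 10 against 2.8% of genes. DESeq2 called 0 members in batch 1 (0.13% of genes) and Dapl1 alone in batch 2 (adjusted p = 0.00144; 0.377% of genes were called higher). With no low-count filter edgeR also called Dapl1 in batch 2 (adjusted p = 0.0358; 0.0331% of genes were called higher). In bulk RNA, fewer cells of a type and less RNA per cell cannot be told apart.

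**Figure D3:**
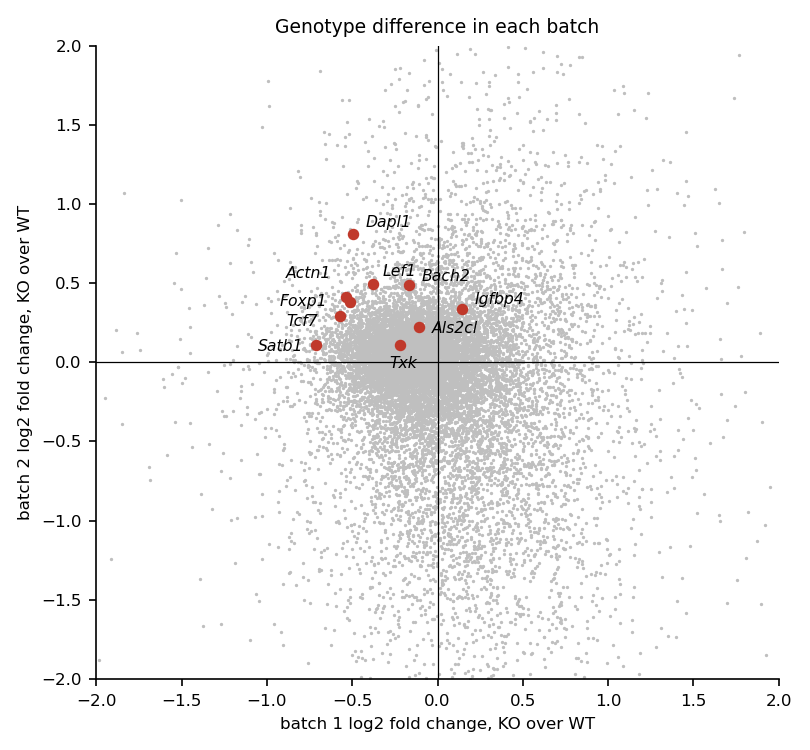
Log2 fold change, ERα KO over wildtype, in batch 2 against batch 1; grey points are the genes tested in both batches and within 2 of 0 on each axis (14635 of 15288), and labelled points are the 10 members. The 9 others than Igfbp4 sit left of 0 and above 0, and Igfbp4 sits right of 0 and above 0.

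Over both batches, with batch as a term, the opposite directions left fold changes near 0. The 10 members ran from -0.29 for Satb1 to 0.26 for Igfbp4, with a median of 0.03 and 5 of 10 above 0 (51.4% of 22197 genes). edgeR called 0 members (0.00451% of genes) and 0 had an unadjusted p under 0.05 (2.36% of genes), and DESeq2 called 0 members (0.0721% of genes). The interaction asked whether the genotype difference itself depended on the batch. All 10 members had a positive interaction, batch 2 minus batch 1, against 38.1% of genes, with a median of 0.73 against -0.19 over all genes. It was highest for Dapl1 at 1.26 ± 0.41, Actn1 at 0.85 ± 0.27 and Foxp1 at 0.80 ± 0.24, and lowest for Igfbp4 at 0.14 ± 0.36. Lef1 had 0.75 ± 0.25, Tcf7 0.74 ± 0.27, Satb1 0.71 ± 0.23 and Bach2 0.55 ± 0.24. Txk had 0.22 ± 0.24 and Als2cl 0.22 ± 0.27. All but Igfbp4, Txk and Als2cl had an unadjusted p under 0.05, 7 of 10 against 1.75% of genes in this direction. The interaction fit takes the spread of each gene as common to both batches. Its SEs, 0.23 for Satb1 and 0.24 for Foxp1, lie below the 0.36 that each had in batch 1 alone. Its estimates need not equal the difference between the separate fits. After adjustment edgeR called 0 members (0.00451% of genes; lowest adjusted p = 0.474, for Foxp1), while DESeq2 called Satb1 and Foxp1 (adjusted p = 0.0233 and 0.0495; 0.743% of genes).

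The result of batch 2 depended on which wildtype library was compared, and with 1 wildtype library left that library is assumed to vary like the ERα KO pair. Without wildtype replicate 3, edgeR called 6 members higher in ERα KO, against 0.531% of genes: Lef1 at 0.65 ± 0.09 (adjusted p = 0.0155), Tcf7 at 0.58 ± 0.10, Bach2 at 0.59 ± 0.11, Foxp1 at 0.48 ± 0.09, Actn1 at 0.68 ± 0.12 and Dapl1 at 1.00 ± 0.11 (adjusted p = 0.00648). Without wildtype replicate 4, it called Dapl1 alone, at 0.64 ± 0.10 (adjusted p = 0.0078; 0.587% of genes were called higher), and Txk stood at -0.0071. The other 5 of those 6 members were then not called, with Lef1 at 0.35, Tcf7 at 0.051, Bach2 at 0.38, Foxp1 at 0.28 and Actn1 at 0.18. Without either ERα KO library it called 0 members (0% of genes). Wildtype replicate 4 held the lowest value of the batch for 9 members, the exception being Satb1. The median of the members was 0.15 without it and 0.58 without wildtype replicate 3.

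**Figure D4:**
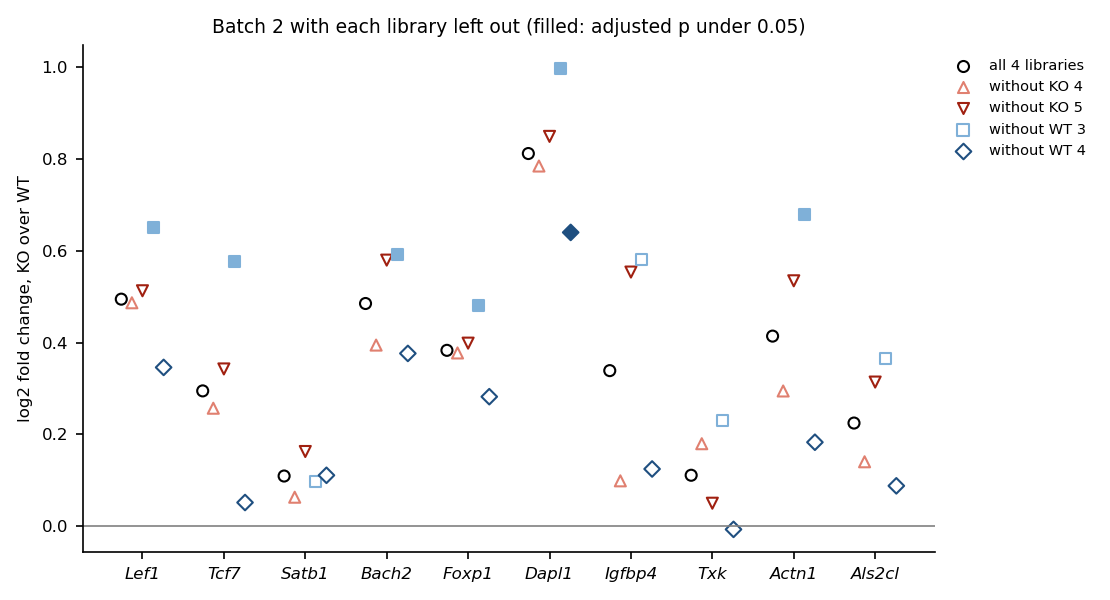
Log2 fold change, ERα KO over wildtype, of each member in batch 2, with all 4 libraries and with each library left out in turn; filled marks passed the adjusted edgeR test. Without wildtype replicate 3 the members' median is 0.58 and without wildtype replicate 4 it is 0.15.

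Most pairs of members varied together across the 9 libraries after each batch was centred, with the genotype difference left in. On log2 CPM centred within each batch, the mean of the members was 0.04, -0.16 and -0.15 in ERα KO against 0.05 and 0.21 in wildtype libraries of batch 1, and 0.25 and 0.12 in ERα KO against -0.07 and -0.30 in wildtype libraries of batch 2. Wildtype replicate 4 was the lowest and ERα KO replicate 4 the highest of the 9 libraries. Of 45 pairs of members, 41 had a Pearson r above 0 over the 9 libraries, with a median of 0.53, against 0.05 over all pairs of 8580 genes. The highest was that of the relatives Lef1 and Tcf7 (r = 0.87), and the lowest that of Satb1 and Igfbp4 (r = -0.17). These points share depth, library totals and genotype, and no p is given. In a search for genes of like pattern outside the set, names of predicted genes, pseudogenes and antigen receptor segments were left out. Among the rest, those most like the mean of the members were Gabrr2 (r = 0.97), Enpp1, Nsg2 and Casd1 (r = 0.95 each) and Adpgk (r = 0.94). Gabrr2, a GABA receptor subunit, stood at 18.6, 13.5 and 16.6 CPM in ERα KO against 17.8 and 28.2 CPM in wildtype libraries of batch 1, and at 17.6 and 15.5 CPM in ERα KO against 10.5 and 7.46 CPM in wildtype libraries of batch 2.

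**Figure D5:**
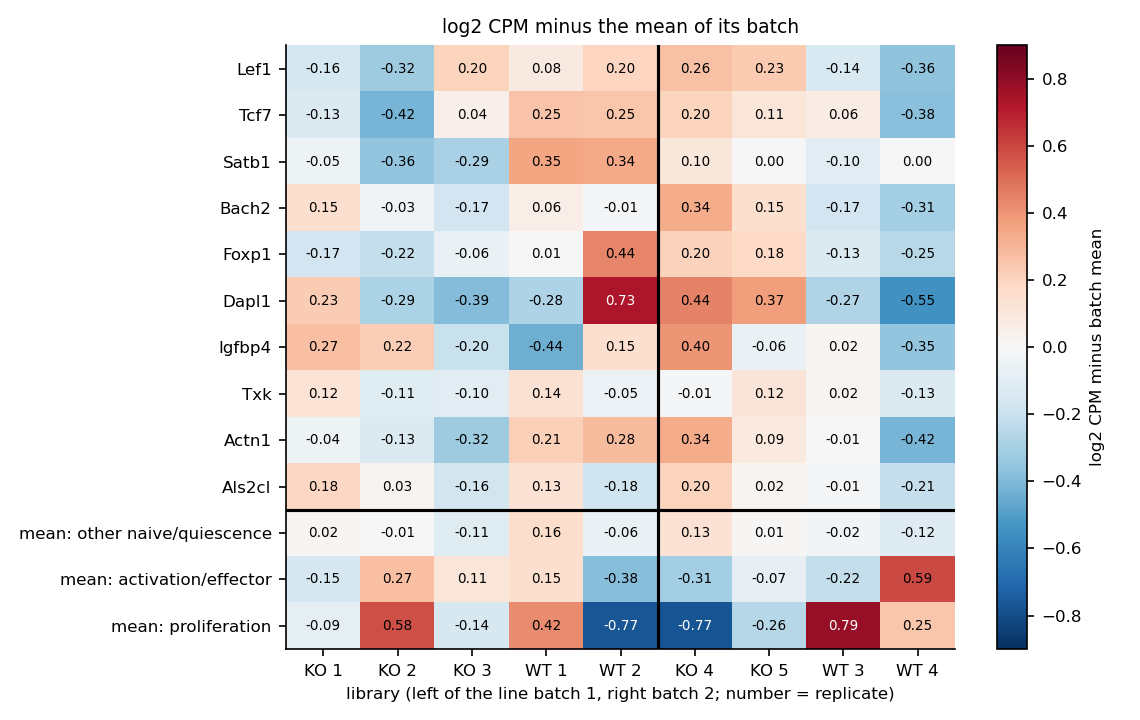
Log2 CPM of the members, centred within each batch, in each of the 9 libraries, with ERα KO left of wildtype in each batch; red is above and blue below the batch mean, and the 3 bottom rows are means of other lists. In wildtype replicate 4 Satb1 lies at 0.00 and the other members lie below 0, down to -0.55 for Dapl1, and the activation list is at 0.59.

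Other genes of the naive and quiescent state followed the same directions in part, and none passed the test in any fit. Of 15, 14 had a lower value in ERα KO in batch 1 (median -0.24) and 12 had a higher value in batch 2 (median 0.19). In batch 2 Ccr7, the lymph node homing receptor, had a log2 fold change of 0.65 ± 0.20, and Il7r, the interleukin-7 receptor chain, 0.36 ± 0.10. Foxo1, a forkhead factor of naive T cell survival and homing, had 0.26 ± 0.09. Btg2, an antiproliferative gene, went the other way with -0.58 ± 0.15. In batch 1 these 4 had -0.04 ± 0.37, -0.19 ± 0.37, -0.50 ± 0.36 and -0.07 ± 0.38, in the same order.

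The TCF/LEF partners and Wnt genes stood nearer to 0 than the members. Of 15 tested in batch 1, 8 were lower (median -0.05), and of 14 tested in batch 2, 11 were higher (median 0.14), with 0 called. In batch 2, Bcl9l and Bcl9, adaptors of β-catenin, had 0.27 ± 0.10 and 0.28 ± 0.17, Ctnnb1, β-catenin itself, 0.21 ± 0.10, and the co-repressor Tle5 0.14 ± 0.09. Relatives of the members showed no common direction: of 18 tested in batch 1, 12 were lower (median -0.06), and of 14 tested in batch 2, 8 were lower (median -0.10). In batch 2, Tcf7l2 had -0.21 ± 0.44, Bach1 -0.11 ± 0.16, Foxp4 0.00 ± 0.13 and Actn4 -0.09 ± 0.09. Foxp3, the factor of regulatory T cells, had 0.35 ± 0.15, Actn2 -0.48 ± 0.41 and Btk -1.59 ± 0.97. Btk is expressed mainly in B and myeloid cells and stood at no more than 3.63 CPM in any library.

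Most activation genes and all proliferation genes had a log2 fold change below 0 in batch 2, opposite to the members. The genotypes overlapped there for the activation list, which summed to 2854 and 3895 CPM in ERα KO libraries. In wildtype it summed to 3130 CPM in replicate 3 and 6705 CPM in replicate 4. Of 20 activation and effector genes 16 were lower in batch 2 (median -0.31) and 11 in batch 1 (median -0.05). In batch 2, Bhlhe40, a factor of cytokine production, stood at 55.6 and 102 CPM in ERα KO against 132 and 239 CPM in wildtype libraries (-1.21 ± 0.43). Id2 had -0.68 ± 0.27, and Tnfrsf4, the co-stimulatory receptor OX40, had 0.37 ± 0.19. All 15 proliferation genes were lower in batch 2 (median -1.15), 14 of them at an unadjusted p under 0.05 (4.97% of all genes in this direction), while 7 of 15 were lower in batch 1 (median 0.02). Plk1, a mitotic kinase, stood at 13.1 and 17.6 CPM in ERα KO against 36.8 and 31.5 CPM in wildtype libraries of batch 2 (-1.15 ± 0.21). Birc5 had -1.65 ± 0.38, Bub1 -1.27 ± 0.33 and Ccnb1 -1.25 ± 0.31. No gene of these lists passed the adjusted test in any of the 4 fits.

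The 2 wildtype libraries of batch 2 differed in these lists as well as in the members. The centred mean of the activation list was -0.31 and -0.07 in ERα KO against -0.22 and 0.59 in wildtype libraries, with wildtype replicate 4, lowest in the members, at the top. The centred mean of the proliferation list was -0.77 and -0.26 in ERα KO against 0.79 and 0.25 in wildtype libraries, with wildtype replicate 3 at the top. The 8 T cell genes had the same directions as the members, with 7 of 8 lower in ERα KO in batch 1 (median log2 fold change -0.36) and 8 of 8 higher in batch 2 (median 0.12). They summed to 3262 to 3581 CPM in ERα KO against 3734 and 4031 CPM in wildtype libraries of batch 1, and to 4819 and 4828 CPM in ERα KO against 4206 and 4572 CPM in wildtype libraries of batch 2. Markers of other cells also differed between libraries. The 5 neutrophil genes summed to 509 to 804 CPM in ERα KO against 276 and 738 CPM in wildtype libraries of batch 1, and to 4.55 and 6.97 CPM in ERα KO against 21.9 and 148 CPM in wildtype libraries of batch 2. The 5 erythroid genes summed to 118 and 128 CPM in ERα KO against 88.3 and 1499 CPM in wildtype libraries of batch 2. The 5 monocyte and macrophage genes summed to 114 to 196 CPM in ERα KO against 31.5 and 137 CPM in wildtype libraries of batch 1, and to 46.3 and 50.9 CPM in ERα KO against 78.7 and 91.1 CPM in wildtype libraries of batch 2. In batch 1, the 5 NK cell genes summed to 21.4 to 32.0 CPM in ERα KO against 14.9 and 16.4 CPM in wildtype libraries, and the 6 B cell genes to 93.1 to 118 CPM in ERα KO against 77.0 and 80.4 CPM in wildtype libraries. The 2 CD8 T cell genes summed there to 9.71 to 12.8 CPM in ERα KO against 15.0 and 18.9 CPM in wildtype libraries. The 6 dendritic cell genes summed to 24.2 to 40.6 CPM in ERα KO against 12.8 and 26.8 CPM in wildtype libraries of batch 1, and to 2.61 and 3.81 CPM in ERα KO against 5.94 and 9.49 CPM in wildtype libraries of batch 2. Silent receptor genes averaged 0.380 CPM per gene in wildtype replicate 1 and 1.69 CPM in ERα KO replicate 3. These libraries had the lowest and the highest dendritic cell sum of batch 1. The part of background in such low sums was not tested. The 4 platelet genes summed to at most 11.2 CPM in any library. The part of these lists in the members' values was not tested.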

How the data were processed

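The labels' protocols name a column kit for total RNA, an Ovation library kit and single reads. Salmon 1.2.0, R 4.0.3 and build GRCm39 are named per the submitters' processing notes; these give no annotation release, strand setting or length scaling. The authors' deposited table holds estimated counts per gene made by that quantification, with no normalization (the labels do not state more); 0.0% of its non-zero values were whole within 1e-06, so the values were rounded.

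From these counts, CPM was computed over the library total, and edgeR 4.0.16 (quasi-likelihood F test, TMM scaling, its default low-count filter with a minimum count of 10 and a minimum total of 15, R 4.3.3) was fitted to all genes within each batch, over both batches with batch as a term, and with a genotype by batch interaction. P-values were Benjamini-Hochberg adjusted over all genes tested, with a threshold of 0.05. The same steps were tested on simulated data. DESeq2 1.42.0, other scalings, no filter, a replicate block and leaving out each library were alternatives. Nothing says that the libraries came from separate animals, so p-values measure the spread between these libraries, which may be technical. No pair of libraries of the same genotype and batch was a duplicate by a chi-square test of the counts. The printed SEs were computed from the fold change and F statistic of the edgeR fits and include the spread between libraries, not counting error alone. edgeR moderates that spread over genes, so SEs and p-values do not give each member's own spread. In batch 1 the SEs of all members lay between 0.35 (Tcf7) and 0.37 (Dapl1).

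The members and the gene lists were chosen with earlier results of these data known. Named genes were all members, the closest relatives, and from each other list those past the threshold or else up to 4 with the smallest p in batch 2. Most alike genes were the 5 with the highest Pearson r to the mean of the members, on log2 CPM with a prior count of 2. They were taken among genes with a mean of at least 10 CPM in each batch, without names of predicted genes, pseudogenes and antigen receptor segments. Some genes that this rule names are not reported here.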

Additional observations from a re-analysis of the deposited data

Results flagged for a closer look

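For 4 members every ERα KO library lay below every wildtype library in batch 1 and above every wildtype library in batch 2. The interaction log2 fold change, batch 2 minus batch 1, was 0.74 for Tcf7, 0.71 for Satb1, 0.80 for Foxp1 and 0.85 for Actn1, and none of the 4 passed the adjusted edgeR test of the interaction (lowest adjusted p = 0.474). DESeq2 called Satb1 and Foxp1. Depth and the share of receptor genes differ with the batch, and so do sex-linked transcripts apart from ERα KO replicate 3. These differences cannot be told apart. Each member and their sum were also examined within each genotype, with batches pooled, for a library far from the others; 0 of these 22 sets of values held one, and a set that pools batches can hide one.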

How the results depend on the processing

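The count of genes called in batch 1 (31) was 56 with DESeq2 size factors, 6 with upper-quartile scaling, 3 with library totals and 68 with no low-count filter, and ran from 33 to 118 with 1 library left out. In batch 2 (0) it was 34 with no filter and 329 with DESeq2, and 0 to 879. Over both batches (1) it was 2 with no filter, 16 with DESeq2, 0 with no batch term, and 0 to 3. For the interaction (1) it was 2 with library totals, 2 with no filter, 165 with DESeq2, and 1 to 238.

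Scaling moved the median of all batch 1 genes from 0.04 (TMM) to -0.08 (DESeq2 size factors), 0.11 (upper quartile) and 0.19 (library totals); the members' median less that of all genes was -0.48, -0.47, -0.49 and -0.49. It was -0.82 without wildtype replicate 2 and -0.33 without ERα KO replicate 3. In batch 2 it was 0.38 with all libraries, 0.58 without wildtype replicate 3 and 0.16 without wildtype replicate 4.

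Members with small changes changed sign. In batch 1 Als2cl was 0.040 with library totals. Over both batches Txk was 0.0069 with upper-quartile scaling and 0.014 with library totals, and Lef1 was -0.039 with no filter. With 1 library left out, batch 1 values ran from -0.38 to 0.040 for Bach2, -0.49 to 0.065 for Txk and -0.42 to 0.25 for Als2cl, and Txk in batch 2 from -0.0071 to 0.23. Over both batches they ran from -0.062 to 0.16 for Lef1, -0.091 to 0.36 for Dapl1, -0.17 to 0.054 for Txk, -0.24 to 0.016 for Actn1 and -0.084 to 0.20 for Als2cl, and for the interaction from -0.11 to 0.40 for Igfbp4, -0.026 to 0.58 for Txk and -0.093 to 0.62 for Als2cl. The cause was not tested.

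For libraries with the same replicate number, deviations from the mean of their genotype and batch correlated over genes at 0.369, -0.394, -0.228 and -0.132 (numbers 1 to 4). With 2 wildtype libraries in batch 1, their deviations mirror each other, so the values for numbers 1 and 2 are not independent. Number 3 is in batch 1 for ERα KO and in batch 2 for wildtype. The numbers were not taken as pairs. With a replicate block the calls were 58 in batch 1 and 1 over both batches; in batch 1 Bach2 was 0.029 and Als2cl 0.12, and over both batches Txk was 0.020, Lef1 -0.045 and Actn1 0.027. No block was possible in batch 2, where the genotypes share 1 number.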
